A study of Mus musculus with 30 samples.

Results

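The genome-wide lists of 5-formylcytosine (5fC) regions were compared between mouse embryonic stem (ES) cells without thymine DNA glycosylase (Tdg -/-, called null here) and ES cells with floxed Tdg alleles (Tdg fl/fl). Members were all regions on chromosomes 1 to 19 and X in the list deposited for each genotype, 120051 in null and 57016 in fl/fl cells, together 177067 of the 694497 regions in the 8 lists of the series. Behind each list stood 2 libraries of DNA from ES cells of the strain C57BL/6-ICR, in which fragments holding 5fC had been labelled chemically and pulled out. Both libraries of a group were called together, so each genotype has 1 list and no spread between replicates could be had. The sources used here do not give whether the libraries of a group came from separate cultures, whether either line is 1 clone, how Tdg was deleted, or the medium of these ES cells. The controls were not wild type, since they carried the floxed alleles.

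5fC is an intermediate of DNA demethylation. TET enzymes oxidise 5-methylcytosine to 5-hydroxymethylcytosine (5hmC), then to 5fC and 5-carboxylcytosine, and TDG cuts the last 2 bases out of the DNA so that base excision repair can put an unmodified cytosine in their place. In ES cells 5fC is known from gene regulatory DNA, among it enhancers, and it is rare while TDG is active. The comparison addressed where 5fC stands, and how far it extends, when it is not excised.

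Markers of ES cells were found in the RNA of both genotypes, on marker lists written with earlier results of these data known. All 10 ES markers were above 1 FPKM (fragments scaled by gene length and depth) in both. Pou5f1, the central pluripotency factor, had 630.5 FPKM in the floxed line and 612.1 in the null line. Of 20 markers of fibroblasts, endoderm, mesoderm and neural cells, 3 reached 1 FPKM in fl/fl cells (Thy1, Gata4 and Nes), and in null cells Sox1 did so too. For Tdg itself the value was 22.1 FPKM with floxed alleles and 9.48 FPKM in the null line, so RNA was still counted over the gene there. Since the DNA came from bulk cells, modification in fewer cells and less of it in each cell cannot be told apart. A region's score grows with sequencing depth, which is unknown for both lists, and the fl/fl list began at a score of 60.92 and the null list at 50.

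5fC regions were wider in null cells. The median width was 770 bp (95% binomial interval of the median 768 to 772) in null and 543 bp (542 to 545) in fl/fl cells, a ratio of 1.42. The narrowest 10% of null regions lay at or under 508 bp and the widest 10% at or over 1500 bp, where the same limits in fl/fl cells were 370 and 922 bp. Regions of 2 kb or wider numbered 4781 in null cells (3.98% of the list) and 119 in fl/fl cells (0.209%). Those of at least 1 kb made up 28.8% of null and 7.39% of fl/fl regions, and held 47.2% and 15.5% of the bases covered. The other marks of the series differed less between genotypes: the ratio of median widths was 1.07 for 5hmC and 0.982 for p300, a coactivator found at enhancers. Library fragments had been selected at about 200 to 350 bp, so a typical region of either list spans only a few fragments.

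**Figure D1:**
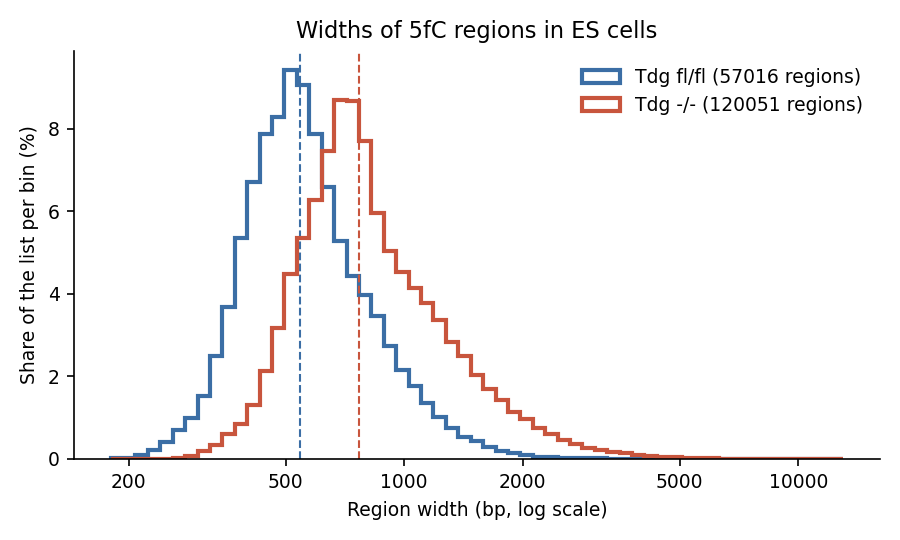
Widths of 5fC regions in Tdg fl/fl (blue) and Tdg -/- (red) ES cells, as the share of each list in each width bin, with the width on a log axis and the medians dashed. The null curve sits to the right over its whole length, with medians of 770 against 543 bp, and has the longer tail.

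The same places could be followed in 42648 pairs, in which 1 fl/fl region met 1 null region and neither met another. Within these pairs the median width was 558 bp in fl/fl and 887 bp in null cells. The null region was the wider one in 40521 of these pairs and at least 2 times as wide in 23.4%. Both borders lay further out by a similar length, with a median of 134 bp at the left end (quartiles 53 and 235) and 139 bp at the right end (57 and 242). The fl/fl region lay wholly within the null region in 78.3% of pairs, and the opposite held in 1.43%. The centres of the paired regions differed by a median of 71 bp.

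The median added length differed little between classes of fl/fl width. From the narrowest to the widest of 4 near-equal classes of paired fl/fl regions, the median difference in width was 299, 281, 289 and 314 bp, and the ratio went from 1.77 down to 1.34. The fl/fl width sets the class and also enters the difference and the ratio, so these values cannot show whether the added length depends on it. For 5hmC, 104164 such pairs gave a median difference of 99 bp and shifts of 40 and 41 bp at the left and right border. For p300, 23572 pairs gave a difference of 44 bp and shifts of 16 and 15 bp. In all 3 marks the null list had more regions and its member of the pair was more often the wider one, in 71.6% of 5hmC and 61.9% of p300 pairs. With the score minimum of the fl/fl list applied to both lists, the null median width was 811 bp. Sequencing depth, which is unknown, was not tested for its part in the widths.

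**Figure D2:**
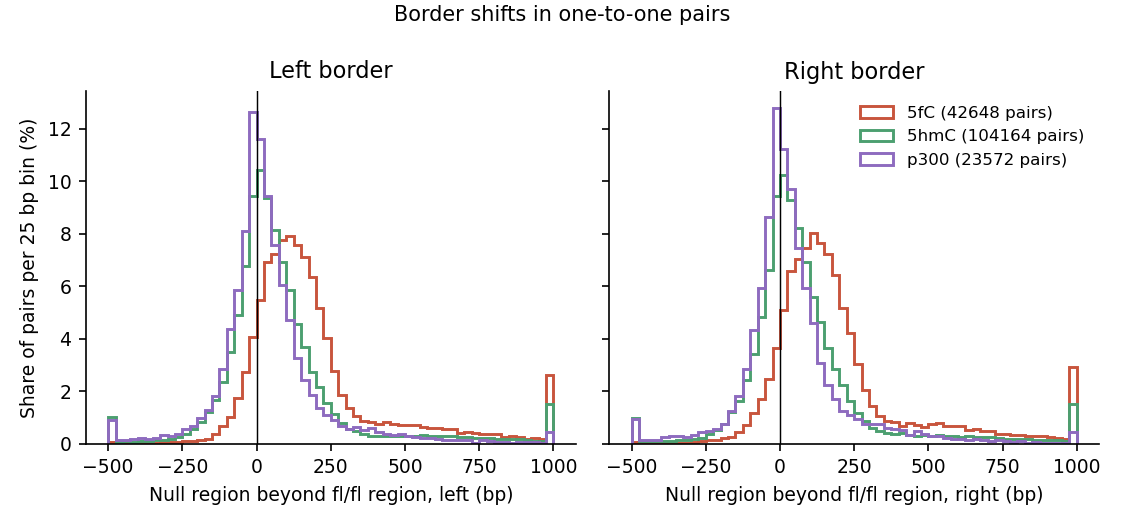
Distance by which the null region reached beyond the fl/fl region at the left and right border, in bp, for one-to-one pairs of 5fC (red), 5hmC (green) and p300 (purple), in bins of 25 bp; pairs beyond the axis are collected in the outermost bins. The 5fC curves peak to the right of 0, with medians of 134 and 139 bp, while those of 5hmC and p300 peak close to 0.

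In bases, 5fC regions covered 34.6 Mb in fl/fl and 110.5 Mb in null cells, 3.19 times as much, against 1.37 times for 5hmC and 1.35 times for p300. With the null list reduced by score to the fl/fl number of regions the ratio was 1.94, and 40.1% of its regions met no fl/fl region, against 61.4% of the whole list. Within a list wide regions score higher, so choosing by score chooses width, and the ratio of 1.94 shows nothing on the genotypes. The lists shared 30.5 Mb, which is 88.0% of the fl/fl and 27.6% of the null bases. The other null bases fell into 21.0 Mb beside fl/fl bases within regions that both lists held, and 59.0 Mb in regions met by no fl/fl region. Of the bases the null list added, 73.7% thus lay in separate regions and the rest in broader ones. Conversely, 3.36 Mb of the fl/fl bases lay in regions without a null counterpart and 0.788 Mb at the ends of shared regions.

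In their overlap with 5hmC, the bases beside the shared core stood between the core and the separate regions. A fl/fl 5hmC region covered 93.7% of the bases shared by both lists, 84.5% of the bases beside them and 66.3% of the bases in null-only regions. For null 5hmC the figures were 97.4, 92.6 and 83.6%. The other marks did not show this order. With p300 of fl/fl cells it was reversed, at 6.51, 7.06 and 8.34%, while p300 of null cells covered 10.3, 10.2 and 10.9%. 5fC of embryoid bodies (EB, made from fl/fl ES cells by differentiation over 5 days) covered 19.3, 12.1 and 12.1%. The fl/fl bases outside null regions were the least covered by p300, at 3.90% in null cells.

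Most fl/fl regions met exactly 1 null region. Of 57016, 49075 (86.1%, Wilson 95% interval 85.8 to 86.4) met 1, 364 (0.638%, 0.576 to 0.707) met 2 and 7577 met 0 (13.3%), and the largest number was 2. Against the null list reduced by score to the fl/fl number of regions, 34.5% of fl/fl regions met 0. In the opposite direction, 43202 null regions met 1 fl/fl region, 2883 met 2, 229 met 3, 27 met 4 and 8 met 5. Joining was thus 8.65 times as frequent as splitting, with 3147 null regions (2.62%, 2.53 to 2.71) over 2 or more fl/fl regions and 364 fl/fl regions over 2 null ones. The same counts were 7949 and 3846 for 5hmC, and 641 and 482 for p300. Splitting depended on the settings more than joining did. With an overlap of at least 50% of the shorter region, 0.110% of fl/fl regions were split and 2.44% of null regions joined others, after merging of regions closer than 1 kb 0.128 and 2.94%, and with equal numbers of regions 0.254 and 5.34%.

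Joined regions were broad and the gaps inside them short. The 3147 null regions held 6601 fl/fl regions (11.6% of that list) and had a median width of 1977 bp. They ran across 3454 gaps of the fl/fl list, with a median of 168 bp, 10% of them over 670 bp and the longest at 5113 bp. Of the 7920 gaps of at most 1 kb between fl/fl regions, 41.6% were bridged in null cells. The 364 split regions had a median width of 860.5 bp and were parted by a median gap of 42.5 bp.

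The null-only regions, 73702 of 120051, lay at widely spread distances from fl/fl 5fC. Their median distance to the nearest fl/fl region was 5658 bp; 14.9% stood within 1 kb, 46.9% within 5 kb and 64.1% within 10 kb, and 3474 (4.71%) lay over 100 kb away. In the null list itself, 42.1% of them had no direct neighbour that was shared with fl/fl cells, against 33.3% of the shared null regions, so shared regions stood beside each other more often. The 7577 fl/fl-only regions lay closer to the other list, at a median of 2419 bp and with 82.4% within 10 kb; the null list, to which this distance was taken, has more regions. Both unshared classes were narrower than the shared ones of their list. Null-only regions had a median of 709 bp against 919 bp, and fl/fl-only regions 424 bp against 565 bp.

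**Figure D3:**
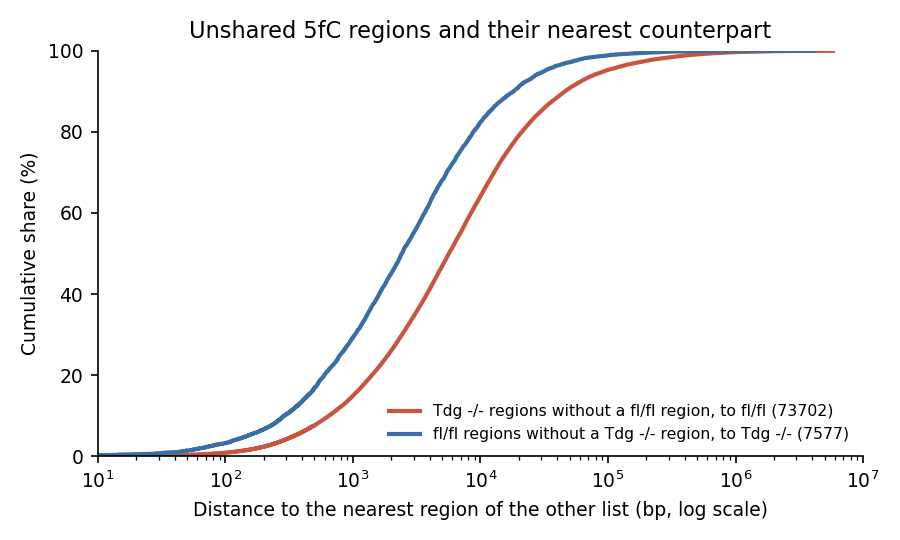
Cumulative share of unshared 5fC regions by distance to the nearest region of the other genotype, in bp on a log axis, for 73702 null-only (red) and 7577 fl/fl-only regions (blue). The medians are 5658 and 2419 bp.

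Null regions stood closer together. The median gap from 1 region to the next was 3647 bp (95% binomial interval 3604 to 3687) in null and 7745 bp (7609 to 7875) in fl/fl cells. The next region began within 5 kb for 57.7% of null and 39.5% of fl/fl regions. With gaps of up to 5 kb joined into clusters, the null list formed 50759 clusters and the fl/fl list 34491. Of the null regions 23.4% stood alone and 18.4% were in clusters of 10 or more, where the fl/fl shares were 40.3% and 2.73%. Such large clusters numbered 1482 in null and 129 in fl/fl cells.

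At equal numbers of regions the spacing differed less between the genotypes. When the null list was reduced to its 57016 highest-scoring regions, as many as in fl/fl cells, the median gap was 7016 bp, 42.1% had the next region within 5 kb, 38.2% stood alone and 4.70% were in clusters of 10 or more. The reduced null list held 211 clusters of 10 or more against 129 in fl/fl cells. Gaps are measured between region borders, so the wider regions of the reduced list shorten them at equal numbers. Whether the spacing differs apart from width was not tested. The median width of the reduced list was 1013 bp, but within a list wide regions also score higher, so that choosing by score chooses width and the widths of this list show nothing on the genotypes.

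**Figure D4:**
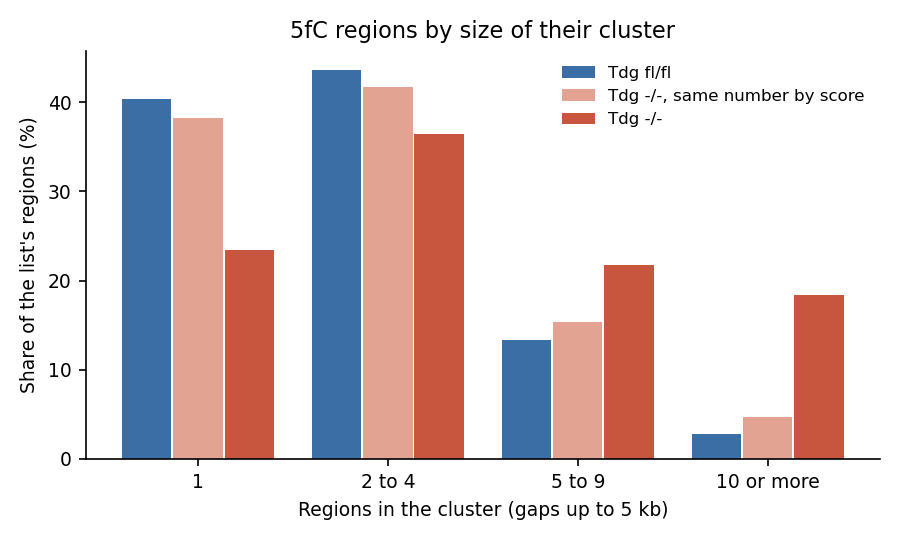
Share of 5fC regions (percent of the list) by the number of regions in their cluster, with gaps of up to 5 kb, in the fl/fl list, the null list reduced to the same number of regions by score, and the whole null list. Clusters of 10 or more hold 2.73, 4.70 and 18.4% of the regions in this order, so the reduced list lies nearer to the fl/fl list than the whole null list does.

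Large null clusters held fl/fl 5fC with few exceptions. Of the 1482 null clusters of 10 or more regions, 7 held no region shared with fl/fl cells, against 283 of 4172 clusters of 5 to 9 regions (6.78%), 5839 of 16991 clusters of 2 to 4 (34.4%) and 19093 of 28114 single regions (67.9%). A larger cluster has more chances to hold a shared region. The share of its regions that were shared also went up with cluster size, but less steeply, from 32.1% of single regions to 45.6% in clusters of 10 or more.

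The broadest null regions covered several fl/fl regions each. The widest, at chr15:76002469-76015224 (12755 bp, mm9), ran over 5 fl/fl regions. The next 2 were neighbours on chromosome 4, at chr4:140861622-140871976 (10354 bp) and chr4:140876150-140885205 (9055 bp), with 5 fl/fl regions each. These and chr8:74207558-74214596 (7038 bp) had the highest scores of the 8 null regions that met 5. All 4 overlapped null 5hmC and an EB 5fC region. Among all null regions of 3 kb and over, 98.6% had the centre on null 5hmC and 21.7% on EB 5fC. The one on chromosome 8 also overlapped p300 in both genotypes, and the one of 10354 bp p300 in null cells. Both of these met fl/fl 5hmC, while those of 12755 and 9055 bp did not. The largest clusters were a run of 69 null regions over 195.9 kb at chr8:122914420-123110286, with 51 fl/fl regions, and 60 over 160.1 kb at chr17:27132007-27292150, with 44. In fl/fl cells the largest held 28 regions over 73.2 kb at chr2:173044001-173117179, where the null list had 23, followed by 24 regions at chr4:140137167-140196147, where it had 20.

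The widest fl/fl regions met at most 1 null region each. The first, at chr1:90150860-90155375 (4515 bp), had a low score of 75.04 and met no null region. The others, at chr10:127155242-127159522 (4280 bp) and chr15:88988128-88992158 (4030 bp), had high scores of 1010.39 and 1639.1 and met 1 each. Of the 109 fl/fl regions of 2 to 3 kb, 100% met a null region. Of the fl/fl regions that met 2 null regions, those with the highest scores lay at chr4:142917190-142918619, chr11:114612686-114614612 and chr3:100846495-100847720. The gene context of these places was not analysed here.

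Wider and higher-scoring null regions were shared with fl/fl cells more often, up to a point. The share that met a fl/fl region was 16.4% of null regions under 500 bp, 51.9% at 1000 to 1500 bp and 87.1% at 3 kb and over. The share with the centre on fl/fl 5hmC went from 51.2% under 500 bp to 91.6% at 2 to 3 kb and was 87.7% at 3 kb and over. On null 5hmC these shares were 66.7, 97.4 and 98.6%, and on null p300 7.27, 15.1 and 13.5%. By score, ranked within the null list alone, 13.6, 23.8 and 42.0% of the lower 3 of 4 equal classes and 22498 of the 30013 regions in the highest met a fl/fl region. An overlap of 1 bp sufficed, so a wider region has more chances to meet another. The score classes differed in width too, with medians of 600, 705, 837 and 1235 bp. The part of width in these shares was not tested.

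At the top of the null list this order turned. Of the null regions with a score of 1000 to 1500, 1201 of 1283 met a fl/fl 5fC region (93.6%, Wilson 95% interval 92.1 to 94.8). The count was 120 of 153 at 2000 to 3000 (78.4%, 71.3 to 84.2) and 26 of 37 at 3000 and over (70.3%, 54.2 to 82.5). Overlap with fl/fl 5hmC took the same course, from 98.4% to 54.1%, while overlap with null 5hmC stayed at 100% in the lowest and highest of these bands. Outside chromosome 11, 21 of 31 null regions with a score of 3000 and over met fl/fl 5fC. On all chromosomes the EB list, also of fl/fl genotype, held 5fC at 30 of the 37 null regions with a score of 3000 and over (81.1%). Among the 11 of them that the fl/fl ES list lacked, it did so at 10. These 11 lay at a median of 932 bp from the nearest fl/fl 5fC region. A score of exactly 3100 was given to 21 null 5fC, 290 null 5hmC, 90 null p300 and 26 fl/fl p300 regions, and to 0 regions of the fl/fl ES 5fC, fl/fl ES 5hmC and both EB lists. The highest scores of the fl/fl ES and EB 5fC lists were 1756.43 and 822.73, and those of fl/fl ES and EB 5hmC 3110.35 and 3044.08. Scores grow with depth, which is unknown, so these values and the counts at 3100 do not compare enrichment between lists. Whether the most strongly enriched regions are complete in the fl/fl lists was not tested.

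Density differed between chromosomes in both genotypes. Over the stretch of each chromosome that any list of the series reached, the 18 autosomes other than 11 held between 16.1 (chromosome 3) and 33.8 (chromosome 17) fl/fl regions per Mb, and between 32.6 (chromosome 3) and 63.4 (chromosome 19) null regions per Mb. The ratio of null to fl/fl regions lay between 1.86 and 2.35 there, and that of bases between 2.82 and 3.56. The share of bases covered lay between 0.887 and 2.13% in fl/fl and between 2.71 and 6.03% in null cells.

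**Figure D5:**
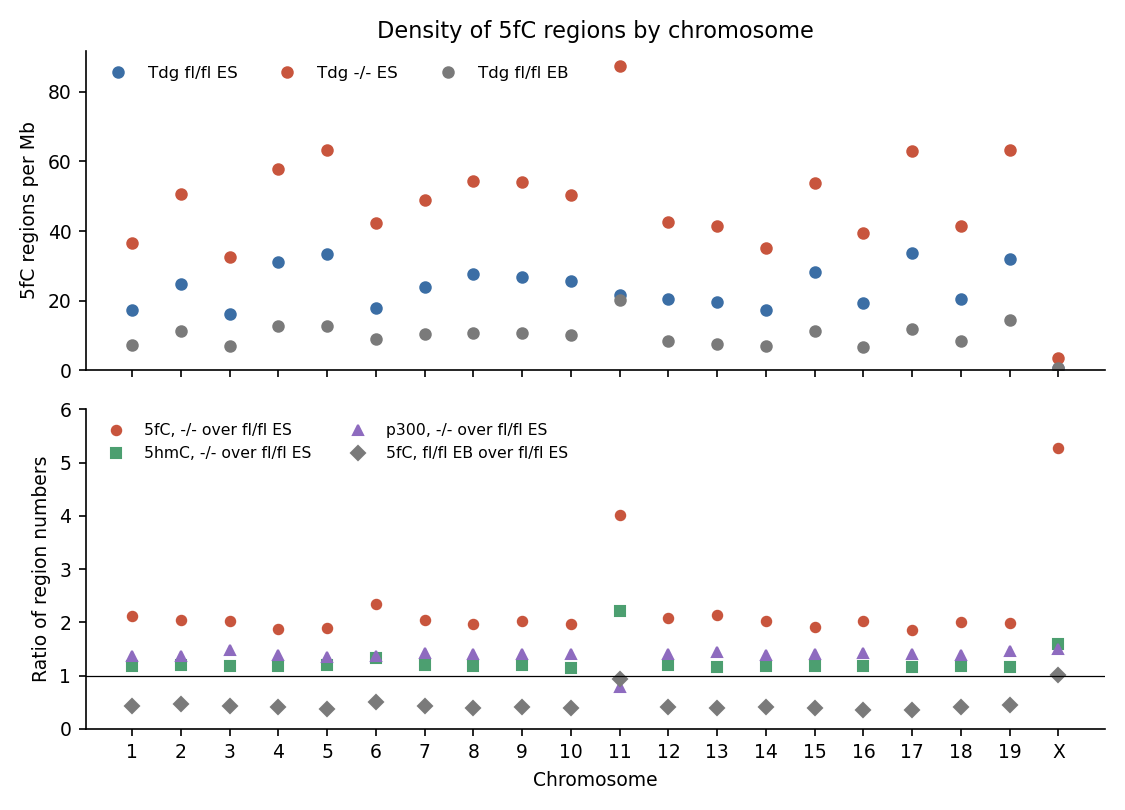
Above, 5fC regions per Mb on each chromosome in fl/fl ES (blue), null ES (red) and fl/fl EB cells (grey; on X the blue point lies under the grey one). Below, the ratio of region numbers, null over fl/fl ES, for 5fC, 5hmC and p300, and of 5fC in EB over ES cells, both fl/fl; chromosomes 11 and X stand apart with 5fC ratios of 4.03 and 5.27, and with EB over ES ratios near 1.

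Chromosome 11 was the densest chromosome of the null list, at 87.5 regions per Mb, and an ordinary one in the fl/fl list, at 21.7. Its null regions covered 9.16% of the bases and its fl/fl regions 1.595%. Fl/fl regions on chromosome 11 were wider than elsewhere, with a median of 648 bp against 503 to 573 bp on the other autosomes, and met a null region more often, with 4.26% unshared against 11.2 to 16.7%. Of its null regions 77.5% were unshared, against 56.4 to 65.7%. The ratio of null to fl/fl regions was 4.58 over the first 100 Mb and 3.24 beyond, so that the difference ran along the whole chromosome.

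The fl/fl ES list stood apart from the other lists of oxidised cytosine on this chromosome. Chromosome 11 held 4.53% of fl/fl ES 5fC regions, 8.66% of null and 9.73% of EB ones, and 4.68, 8.33 and 7.69% of 5hmC regions in the same order. EB cells share the fl/fl genotype. The ratio of EB to fl/fl ES 5fC regions was 0.932 on chromosome 11 and 0.346 to 0.498 on the other autosomes. The ratio of null to EB regions was 4.32, next to a range of 4.37 to 5.80. For p300 the order was the opposite, with 8.48% of fl/fl and 4.95% of null regions on chromosome 11. The number of regions called can follow the number of DNA copies. Copy number of chromosome 11, and of the first 31 Mb of chromosome 6, was not tested in any of these cells.

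Chromosome X was almost free of called 5fC in both genotypes, with 104 fl/fl and 548 null regions, or 0.644 and 3.395 per Mb. The ratio of 5.27 was the highest of the 20 chromosomes, and that of bases 7.97. Both rest on few fl/fl regions. X regions were narrow, with medians of 421.5 bp in fl/fl and 604 bp in null cells, and 12.5% of the fl/fl ones were unshared, within the range of the autosomes. 5hmC was sparse too, at 2.67 regions per Mb in fl/fl and 4.28 in null cells, with a ratio of 1.601. So was p300, at 3.04 and 4.58 regions per Mb, against at least 9.14 and 13.5 on the autosomes. The p300 ratio on X was 1.51. EB cells had 106 5fC regions on X, so the ratio of null to EB regions was 5.17, within the autosomal range.

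The first 31 Mb of chromosome 6 behaved as a block, a boundary chosen after its values were seen. It held 115 fl/fl and 940 null 5fC regions, a ratio of 8.17, where the rest of the chromosome had 2.08. 5hmC regions numbered 504 and 1497 (ratio 2.97, against 1.20 on the rest), while the p300 ratio was 1.36 in both parts. EB cells had 274 5fC regions in the block, 2.38 times the fl/fl ES number, against 0.412 on the rest of the chromosome. As on chromosome 11, the fl/fl ES lists thus held few regions of both 5fC and 5hmC here, next to null ES and fl/fl EB cells. At the edge, 144 null and 16 fl/fl regions stood in the megabase from 30 to 31 Mb, 135 and 32 in the next, and 29 and 12 in the one after.

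Across 1 Mb windows the genotypes ranked places alike. Over 2231 windows with 5fC in either list, region numbers correlated with a Pearson r of 0.951 and a Spearman rho of 0.965, and with 0.979 for both over the 2006 windows outside chromosomes 11 and X and the block on chromosome 6. The windows share base composition and mappability, so these values are descriptions. Null but no fl/fl regions stood in 293 windows, with 789 null regions in all, and the reverse was found in 8 windows. Of the 1264 windows with at least 10 fl/fl regions, 135 had at least 3 times as many null as fl/fl regions (10.7%). Chromosome 11 supplied 62 of these, out of its 70 windows, and the block on chromosome 6 supplied 6 of 6. On the other 17 autosomes 64 of 1122 windows (5.70%) reached this ratio, with a median ratio of 2.

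The windows with the highest ratios lay on chromosome 6 from 30 to 31 Mb (144 null and 16 fl/fl regions) and from 28 to 29 Mb (111 and 13), and on chromosome 11 from 32 to 33 Mb (87 and 13). The lowest ratio, 0.478, stood on chromosome 9 from 3 to 4 Mb, with 11 null and 23 fl/fl regions. Next came chromosome 7 from 77 to 78 Mb, with 24 null and 36 fl/fl 5fC regions. In this window 5hmC regions were fewer in null cells as well, at 28 against 65, and p300 regions numbered 17 against 12. The third, on chromosome 18 from 31 to 32 Mb, had 10 in each list. Only the first 2 of these windows fell below a ratio of 1 among the 1264.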

How the data were processed

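Of the 30 libraries in the series, the 2 fl/fl and 2 null ES libraries enriched for 5fC stand behind the lists compared, and the lists of 5hmC, p300 and EB 5fC were used beside them. Per the labels' protocols, libraries started from 25 ng of DNA and went through 18 cycles of PCR. The authors deposited 1 region list for each group. The submitters' processing notes name Bowtie, MACS 1.4 and the build mm9 for the series. The sources used here do not give the threshold for calling regions. Per the file headers, the authors' score is 10 times the negative log10 of a region's p-value (lists with no header were read alike). It served mainly to rank within a list. Across lists, the fl/fl score minimum was also applied to the null list, and the highest scores of the lists were set side by side. FPKM were deposited by the authors as 1 value per gene and genotype, and rows of 1 symbol were summed. Lists give no read numbers, so depth is unknown.

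Widths, gaps, overlaps (at least 1 bp) and bases were computed with Python 3.11.15 and numpy 2.4.6 and tested on simulated lists. Positions are printed as deposited. The 2 fl/fl and 1 null regions on other chromosomes were left out. No test compares replicates, since each group is 1 pooled list. Wilson and binomial 95% intervals (scipy 1.17.1) cover counting error only. Regions named are the 3 widest and the 3 with most counterparts of each list, the 2 clusters with most regions, and the 3 windows at each end of the ratio among those with at least 10 fl/fl regions; others named were chosen after their values were seen. The members and lists were chosen with earlier results of these data known. Alternatives were 2 score filters, equal numbers of regions, merging, other distances and overlap rules, and leaving out chromosome 11.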

Additional observations from a re-analysis of the deposited data

How the results depend on the processing

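Over 59 values under alternative settings, 19 kept within 1.5 times (ratios) or within the interval of the main value and 40 moved. None changed the order of the genotypes, and with equal numbers the ratio of regions is 1 by construction. The 19 include the fl/fl width and spacing under the fl/fl score minimum and with equal numbers. Both settings leave the fl/fl list as it is, so these could not move. The values are, in this order, the median null width, the share of null regions with the next within 5 kb, the share of null regions without a fl/fl region, the share of fl/fl regions over 2 or more null regions and the share of null regions over 2 or more fl/fl regions. With the fl/fl score minimum in both lists they were 811 bp, 54.7, 57.4, 0.544 and 3.01%. With the regions of each list above its median score they were 996 bp, 43.1, 62.3, 0.435 and 1.90%, with fl/fl values of 645 bp and 27.5% for width and spacing. With the null list at the fl/fl number, chosen by score and so by width, they were 1013 bp, 42.1, 40.1, 0.254 and 5.34%. The ratio of bases was then 1.94. After merging of regions closer than 1 kb they were 833 bp, 44.6, 56.9, 0.128 and 2.94%, with fl/fl values of 564 bp and 29.8%. Without chromosome 11 the first 3 were 764 bp, 56.8 and 59.9% and the last 2.74%, with a fl/fl width of 539 bp. Within 2 kb in place of 5 kb, 36.3% of null and 22.4% of fl/fl regions had the next region, and within 10 kb 73.7% and 56.3%. With an overlap of at least 50% of the shorter region the last 2 shares were 0.110 and 2.44%. With the centre rule they were 0.0982 and 2.44%, and 66.5% of null regions had no counterpart. The ratio of chromosome 11 to the median autosome was 1.99, and lay between 1.73 after merging and 2.35 above the median score.

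No paired analysis was possible because both replicates of a group were pooled into 1 list, and for the same reason no replicate was left out. Depth is unknown, so a region missing from a list was not detectable there and need not be absent.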

Other observations

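The ratio of null to fl/fl 5fC regions was highest in windows with few 5hmC regions. Outside chromosomes 11 and X and the first 31 Mb of chromosome 6, 1 Mb windows were put into classes by their number of fl/fl 5hmC regions, a measure that 5fC counts do not enter. In the 648 windows with 0 to 9 such regions the lists held 402 fl/fl and 1374 null 5fC regions, a ratio of 3.42. It was 2.65 in the 464 windows with 10 to 39, 2.28 in the 369 windows with 40 to 79 and 1.89 in the 731 windows with 80 or more. The 5hmC ratio went from 1.36 to 1.17 over the same classes, where the fl/fl count is also the class, and the p300 ratio from 1.5 to 1.38. The ratio of EB to fl/fl ES 5fC regions followed the same order, from 1.06 to 0.377. All of these ratios divide by fl/fl ES lists, and fl/fl 5hmC covered 90.6% of the fl/fl 5fC bases. Windows low in fl/fl 5hmC were also low in fl/fl 5fC, with 0.620 regions per window in the lowest class and 59.6 in the highest. Null 5fC had 2.12 and 112.7. The part of the shared denominator, and of classing by a list so close to it, was not tested.

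EB 5fC, from fl/fl cells at day 5 of differentiation, met null ES 5fC more often than fl/fl ES 5fC. Of 24727 EB regions, 20809 (84.2%) met a null region and 9946 (40.2%) a fl/fl ES region, while the null list covers 3.19 times the bases. Only 116 EB regions met fl/fl ES 5fC and no null 5fC, and 3802 met neither. Seen from the null list, an EB region lay at 14.0% of null-only regions, 21.1% of those over 1 fl/fl region and 35.0% of those over 2 or more, whose median widths were 709, 885 and 1977 bp. Of the fl/fl-only regions 1.64% met an EB region, against 20.3% of shared fl/fl regions.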
